A study of Mus musculus with 10 samples.

Results

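The regions described here are stretches of the mouse genome that carried a called H3K27me3 peak in all 5 lines of a drug-resistance series and lay over 5 kb from the transcription start site (TSS) of every annotated gene. The members were chosen by the peak calls themselves: duplicate rows were dropped from each list, overlapping peaks of the 5 lists were merged into union regions, and a region was kept where each line had a peak in it. Of 47264 union regions, 1678 had a peak in all 5 lines, and 307 of these lay over 5 kb from a TSS. They will be called distal regions below, and the other 1371 regions in all 5 lines, within 5 kb of a TSS, serve as the nearest comparison.

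The study selected an Eµ-Myc, Cdkn2a-/- B-cell lymphoma line on the C57BL/6J background for growth in rising doses of mafosfamide, an alkylating agent used in culture in place of cyclophosphamide. The starting line is called Parental (0 nM). The derived lines R100, R500, R1000 and R4000 are named for the dose in nM in which they were selected (100, 500, 1000 and 4000). According to the paper, every line was kept free of mafosfamide for the H3K27me3 experiment, so the doses describe selection and not treatment at harvest. In this model the Eµ immunoglobulin enhancer drives the Myc transgene in B-lineage cells, both copies of Cdkn2a are deleted in every line including Parental, and all 4 resistant lines come from that 1 parental line, so differences between clones and differences between doses cannot be told apart. Each line is represented by 1 list of H3K27me3 peak positions from chromatin immunoprecipitation sequencing, with no replicate list analysed here and no read count, so no difference between lines could be tested and all comparisons below are descriptions. The labelled B-cell identity was not checked against markers, since the lists hold no expression.

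H3K27me3 is the trimethyl mark that the polycomb repressive complex PRC2 places on lysine 27 of histone H3. It is bound by chromobox proteins of the complex PRC1 and is known for covering CpG-rich promoters of developmental transcription factor genes in cells that do not use them. Away from promoters it can form the flanks of such domains, cover gene bodies and mark silent or poised enhancers.

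The lists differed in size before any region was chosen. After duplicates were dropped, Parental had 10778 peaks, R100 25180, R500 21888, R1000 9595 and R4000 6820, and these peaks covered 1.63, 5.04, 4.53, 1.61 and 1.07 Mb in the same order. Sequencing depth is unknown, since the files hold positions only. Distal regions took up 8.44% of the bases in the Parental list, 5.3% of those in the R100 list and 6.06% for R500, compared with 9.11% for R1000 and 10% for R4000.

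Sequences from 8 distal regions are given here (mm9, plus strand, CpG dinucleotides in capitals), because CpG content is described below as a sequence feature of these regions. Those from the 4 regions with the longest core, meaning the longest stretch covered by peaks of all 5 lines at once, are the 300 bases in the middle of that core. They lie upstream of Cbx8 (chr11:118919351-118919650, intergenic), upstream of Hoxa11 (chr6:52203476-52203775, intergenic), inside Lhx9 (chr1:140737676-140737975, within the gene but outside its exons) and downstream of the Lbx1 TSS (chr19:45304326-45304625, intergenic).
Cbx8 upstream core: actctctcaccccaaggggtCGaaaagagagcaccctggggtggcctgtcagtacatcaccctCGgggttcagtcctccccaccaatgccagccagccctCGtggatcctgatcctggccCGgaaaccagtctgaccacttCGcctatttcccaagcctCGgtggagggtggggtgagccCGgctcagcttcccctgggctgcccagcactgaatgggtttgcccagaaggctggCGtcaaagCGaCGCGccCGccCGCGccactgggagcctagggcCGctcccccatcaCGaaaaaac
Hoxa11 upstream core: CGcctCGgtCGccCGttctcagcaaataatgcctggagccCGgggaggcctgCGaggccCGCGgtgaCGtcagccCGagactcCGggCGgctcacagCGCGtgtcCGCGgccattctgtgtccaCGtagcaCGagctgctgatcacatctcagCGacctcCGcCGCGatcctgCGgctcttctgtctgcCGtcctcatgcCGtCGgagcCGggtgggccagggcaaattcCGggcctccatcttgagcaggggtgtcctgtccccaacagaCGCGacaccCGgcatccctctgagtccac
Lhx9 core: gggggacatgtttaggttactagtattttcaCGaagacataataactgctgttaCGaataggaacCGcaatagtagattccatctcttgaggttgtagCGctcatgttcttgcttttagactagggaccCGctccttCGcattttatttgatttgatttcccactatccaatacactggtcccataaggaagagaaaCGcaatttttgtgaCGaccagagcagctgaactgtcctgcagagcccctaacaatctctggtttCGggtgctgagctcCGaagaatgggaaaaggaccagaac
Lbx1 core: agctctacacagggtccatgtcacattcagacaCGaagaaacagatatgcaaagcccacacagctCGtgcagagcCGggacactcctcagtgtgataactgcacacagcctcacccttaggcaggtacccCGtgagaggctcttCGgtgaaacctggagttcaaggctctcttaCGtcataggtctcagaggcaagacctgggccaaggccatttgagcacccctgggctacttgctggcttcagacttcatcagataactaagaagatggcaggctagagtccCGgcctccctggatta
The Hoxa11 sequence held 31 CpGs with an observed/expected ratio of 0.921, against 16 and 0.524 for the Cbx8 sequence, 10 and 0.659 for Lhx9, and 7 and 0.322 for Lbx1. Long shared stretches thus included both CpG-dense and CpG-poor DNA. Only the Lhx9 sequence held the E box CAGCTG among these 4.

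The next 4 sequences are cores of the regions with the lowest and the highest CpG observed/expected ratio among the regions eligible for printing. The CpG-poor cores lie near C130026I21Rik (chr1:85277001-85277050, inside the pseudogene Gm16026, outside its exons) and near Hnrpll (chr17:80472601-80472650, intergenic). The CpG-rich cores lie near Samd9l (chr6:3151351-3151600, intergenic) and near Ankrd60 (chr2:173411751-173411800, in an exon of the long noncoding RNA gene Ppp4r1l-ps).
C130026I21Rik core: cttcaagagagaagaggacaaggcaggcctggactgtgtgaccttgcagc
Hnrpll core: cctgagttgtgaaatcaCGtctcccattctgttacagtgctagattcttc
Samd9l core: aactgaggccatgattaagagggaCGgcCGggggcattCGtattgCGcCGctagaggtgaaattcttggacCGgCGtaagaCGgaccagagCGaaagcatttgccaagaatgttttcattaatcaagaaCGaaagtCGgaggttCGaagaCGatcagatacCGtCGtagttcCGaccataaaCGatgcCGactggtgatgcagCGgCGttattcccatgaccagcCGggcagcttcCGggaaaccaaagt
Ankrd60 core: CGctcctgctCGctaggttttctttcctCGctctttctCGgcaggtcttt
The C130026I21Rik core held 0 CpGs in 50 bases and the Hnrpll core 1 in 50 bases, whereas the Samd9l core held 22 in 250 bases and the Ankrd60 core 4 in 50 bases. The Samd9l core is read again below, since its sequence is not unique in the genome.

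The 307 distal regions were 1.41% of the 21816 union regions over 5 kb from a TSS (95% Wilson interval 1.26 to 1.57%, which covers counting error only). Among the 25448 regions within 5 kb of a TSS, 5.39% (5.12 to 5.67%) were in all 5 lines. The distal regions had a median width of 900 bp, with quartiles of 575 and 1400 bp and a range of 150 to 6300 bp. The near-TSS regions had a median width of 1000 bp.

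A peak in each line did not mean that the lines marked the same bases. Only 156 of the 307 distal regions (50.8%) held any base covered in all 5 lines. In the other 151, peaks of different lines were joined through overlap with peaks of other lines. Where a base common to all 5 lines existed, the longest such stretch had a median of 100 bp and reached 1900 bp upstream of Cbx8, and 24 regions had a stretch of at least 300 bp. Of the near-TSS regions, 58.4% held a common base. Of the bases within distal regions, 17.8% were covered in 1 line, 27.3% in 2, 25.9% in 3, 17.5% in 4 and 11.6% in all 5.

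The distal regions were covered over longer stretches in R100 and R500 than in the other 3 lines, and over the shortest stretches in R4000. The median covered length per region was 300 bp in Parental (95% interval of the median over regions 250 to 350 bp), 650 bp in R100 (550 to 750), 700 bp in R500 (650 to 850), 300 bp in R1000 (300 to 400) and 200 bp in R4000 (200 to 250). These intervals treat the regions as independent, although many are grouped. They do not measure variation between libraries, so they are no test of a difference between lines. The interquartile ranges overlapped in every pair of lines except that of R500 (450 to 1175 bp) with that of R4000 (100 to 425 bp). Divided by the parental median, the medians were 2.17 (R100), 2.33 (R500), 1.0 (R1000) and 0.667 (R4000). For near-TSS regions, these ratios were 2.29, 2.43, 1.14 and 0.857.

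**Figure D1:**
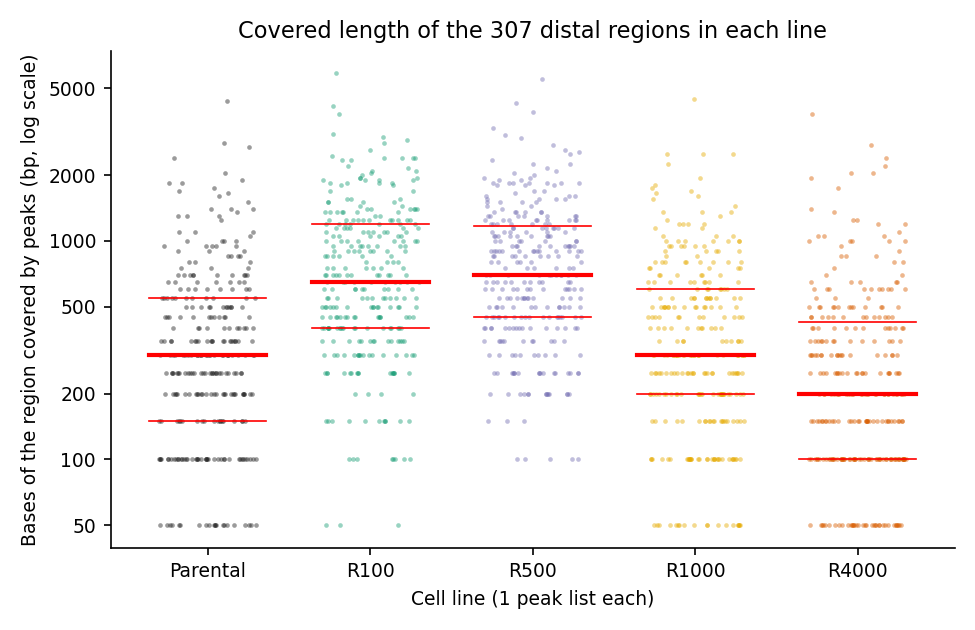
Bases covered by H3K27me3 peaks (bp, log scale) in each of the 307 distal regions, for the 5 lines; each point is a region, the thick red line is the median and the thin red lines are the quartiles. The median is 650 bp for R100 and 700 bp for R500, 300 bp for Parental and for R1000, and 200 bp for R4000.

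R100 and R500, with the longest median covered lengths, also have the longest lists. They are also the only lists that held duplicate rows, with 50360 rows for 25180 peaks in R100 and 43776 for 21888 in R500. The reason for the duplicates is not given. When each list was reduced to its 6820 widest peaks, the ratios of medians to Parental were 2.21 (R100), 2.43 (R500), 1.14 (R1000) and 0.714 (R4000). This keeps the widest peaks of each list, so it selects on the measured length and does not separate list size from length. The part of list size, of depth and of any difference in how the lists were made was not tested.

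Region by region, 246 of the 307 distal regions (80.1%) were longer in R100 than in Parental, 15 were equal and 46 were shorter. The share longer was 77.9% among all regions with a peak in both lines and 89.6% among near-TSS regions. A covered length at least 2 times that of Parental was found in 161 distal regions in R100 (52.4%), beside 56.2% of all regions with a peak in both lines. In R500 it was found in 165 (53.7%), beside 54.8%. The share among distal regions was thus close to the background in both lines. A covered length at most 0.5 times that of Parental was found in 19 distal regions in R100 (6.19%, background 7.25%) and in 1 in R500 (0.326%, background 6.64%). Near-TSS regions were also low, with 2.48% in R100 and 1.24% in R500, so the low share in R500 was not particular to distal regions.

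The lines selected at the higher doses were closer to Parental or below it. In R1000, 151 distal regions (49.2%) were longer than in Parental and 131 (42.7%) were shorter, beside 46.9% and 39.5% of all regions in both lines. Of the 307, 83 (27%, background 26.6%) were at least 2 times as long and 65 (21.2%, background 20.2%) at most 0.5 times as long. In R4000, 98 (31.9%) were longer and 183 (59.6%) were shorter, beside 35.2% and 52.7%. There 50 (16.3%, background 18.2%) were at least 2 times as long and 111 (36.2%, background 31.5%) at most 0.5 times as long. Near-TSS regions were at most 0.5 times as long in 27.8% in R4000.

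In 233 distal regions (75.9%), both R1000 and R4000 were covered over fewer bases than both R100 and R500. This pattern was not counted in other regions. The step from R500 to R1000 was not particular to distal regions. R1000 was shorter than R500 in 89.9% of distal regions, 89.3% of near-TSS regions and 77.8% of all regions with a peak in both lines. R4000 alone was shortest in 130 (42.3%, near-TSS regions 39.0%), and Parental alone in 72 (23.5%, near-TSS regions 28.7%). R500 alone was longest in 118 (38.4%) and R100 alone in 111 (36.2%), beside 40.8% and 40.9% of near-TSS regions. No distal region had the same covered length in all 5 lines. Across distal regions, the covered lengths of R100 and R500 were the most alike of the pairs examined, with a Spearman rho of 0.86 and a Pearson r of 0.92. R4000 and Parental gave a Spearman rho of 0.45 and a Pearson r of 0.8 (n = 307 regions, which share list and width).

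The bases covered in Parental and R4000 lay mostly under R100 and R500 peaks, and less so under peaks of the other lines. Of the bases of distal regions covered in R4000, 87.0% were also covered in R100 and 88.9% in R500, but 55.8% in Parental and 62.4% in R1000. Of the bases covered in Parental, 79.5% lay under an R100 peak as well, 85.3% under an R500 peak, 54.7% under an R1000 peak and 43.7% under an R4000 peak. R100 and R500 covered 79.3% and 81.7% of the summed width of the distal regions, against 40.9% for Parental, 43.7% for R1000 and 32% for R4000. Bases placed anywhere in these regions would thus fall mostly under R100 and R500 peaks, so the high shares there are in part given by that width.

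The 12 longest stretches shared by all 5 lines lay at 9 loci. Cbx8 encodes a chromobox subunit of PRC1 that binds the mark itself, and 4 of the 12 longest cores lay upstream of it. The longest, chr11:118917601-118920950, 15.3 kb from the Cbx8 TSS (gene ENSMUSG00000025578.8), was covered over 1900 bp (Parental), 3100 bp (R100), 3300 bp (R500), 2250 bp (R1000) and 2750 bp (R4000). Its single parental peak was itself the 1900 bp shared by all 5 lines, so here every resistant line covered all the bases of the parental peak.

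At Hoxa11, a homeobox gene of limb and urogenital patterning, the region chr6:52201551-52204600 was covered over 2800 bp in both Parental and R100, 2950 bp (R500), 2500 bp (R1000) and 2400 bp (R4000). This was a narrow spread for so wide a region. The widest distal region, chr1:140733351-140739650 in Lhx9, a LIM homeobox gene of gonad and nervous system development, was covered over 4350 bp (Parental), 5850 bp (R100), 5500 bp (R500), 4450 bp (R1000) and 3800 bp (R4000). It holds 1209 exonic bases and the start of an annotated Lhx9 transcript, so it is distal to the gene's 5' end and not to every transcript start.

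The remaining long cores lay at Wnt10a, a secreted Wnt ligand, at the homeobox genes Lbx1, Vax2 and Nkx2-5, near Ppp1r15b, a subunit of the phosphatase that acts on the translation factor eIF2α, and in Eif4e3, a cap-binding protein gene. The Nkx2-5 region, upstream of this heart factor gene, was covered over 1850 bp (Parental), 2050 bp (R100), 1850 bp (R500), 1150 bp (R1000) and 1250 bp (R4000). The Ppp1r15b region, 31.4 kb from the TSS, was covered over 1300, 3000, 3050, 1800 and 2200 bp in the same order. Of the 12 long-core regions, this one and the longest at Cbx8 had the largest ratios of R4000 to Parental, 1.69 and 1.45.

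**Figure D2:**
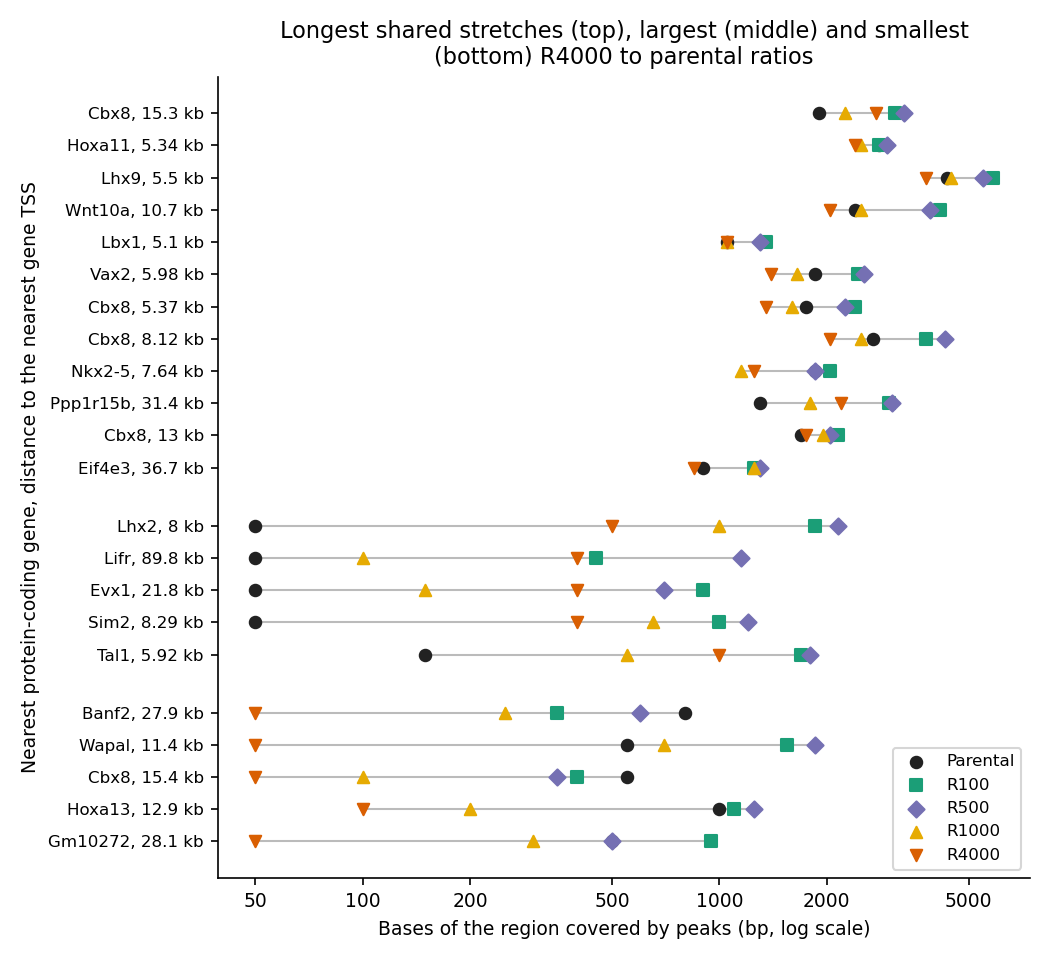
Bases covered by H3K27me3 peaks (bp, log scale) in the 5 lines for the 12 distal regions with the longest shared stretch (top), the 5 with the largest (middle) and the 5 with the smallest (bottom) ratio of R4000 to Parental. Rows give the nearest protein-coding gene and the distance to the nearest gene TSS in kb. Long-core regions span from 2400 to 2950 bp at Hoxa11 and from 1300 to 3050 bp at Ppp1r15b, in the middle rows Parental lies at 50 to 150 bp and in the bottom rows R4000 lies at 50 to 100 bp.

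The ends of the R4000 to Parental range are given as a description, chosen from the 202 distal regions with at least 300 bp covered in either line. The largest ratio, 10, was in Lhx2, a LIM homeobox gene, where chr2:38202801-38205000 was covered over 50 bp (Parental), 1850 bp (R100), 2150 bp (R500), 1000 bp (R1000) and 500 bp (R4000). The regions near Lifr, Evx1 and Sim2 each had a ratio of 8.0, from 50 bp in Parental to 400 bp in R4000. In Tal1, a basic helix-loop-helix factor gene of blood development, Parental held 150 bp, R100 1700 bp, R500 1800 bp, R1000 550 bp and R4000 1000 bp. In each of these 5 regions, R500 or R100 was the longest, so longer coverage than in Parental was also found in other resistant lines. The Lhx2 and Tal1 regions lay 1828 and 2838 bp from an annotated transcript start of their gene, so they are distal to its 5' end only.

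The smallest ratio, 0.0625, was near Banf2, where chr2:143940301-143941200 was covered over 800 bp (Parental), 350 bp (R100), 600 bp (R500), 250 bp (R1000) and 50 bp (R4000). Near Wapal, a gene for a factor that releases cohesin, the lengths were 550, 1550, 1850, 700 and 50 bp. At Hoxa13 they were 1000, 1100, 1250, 200 and 100 bp. The outermost region of the Cbx8 group, chr11:118922801-118923500, held 550, 400, 350, 100 and 50 bp, in contrast to the long cores beside it. The lists step in windows of 50 bp, so the ratios at both ends rest on short calls of 50 to 150 bp in 1 line.

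Distal regions were often grouped. With gaps of up to 20 kb, the 307 regions fell into 203 groups, of which 148 were single regions and 55 held the other 159. A group of 5 regions upstream of Cbx8 (chr11:118907651-118923500) was covered over 8600 bp (Parental), 11850 bp (R100), 12250 bp (R500), 8400 bp (R1000) and 7950 bp (R4000). From Hoxa11 to beyond Evx1, 8 regions on chr6:52201551-52273800 were covered over 5350, 9000, 8550, 4750 and 4450 bp. These groups flank peaks of near-TSS regions: the Cbx8 group begins 5.37 kb upstream of the TSS, and a region in all 5 lines within 5 kb of a TSS lies within 10 kb of 91 distal regions (29.6%). Another 137 distal regions (44.6%) had none within 100 kb.

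**Figure D3:**
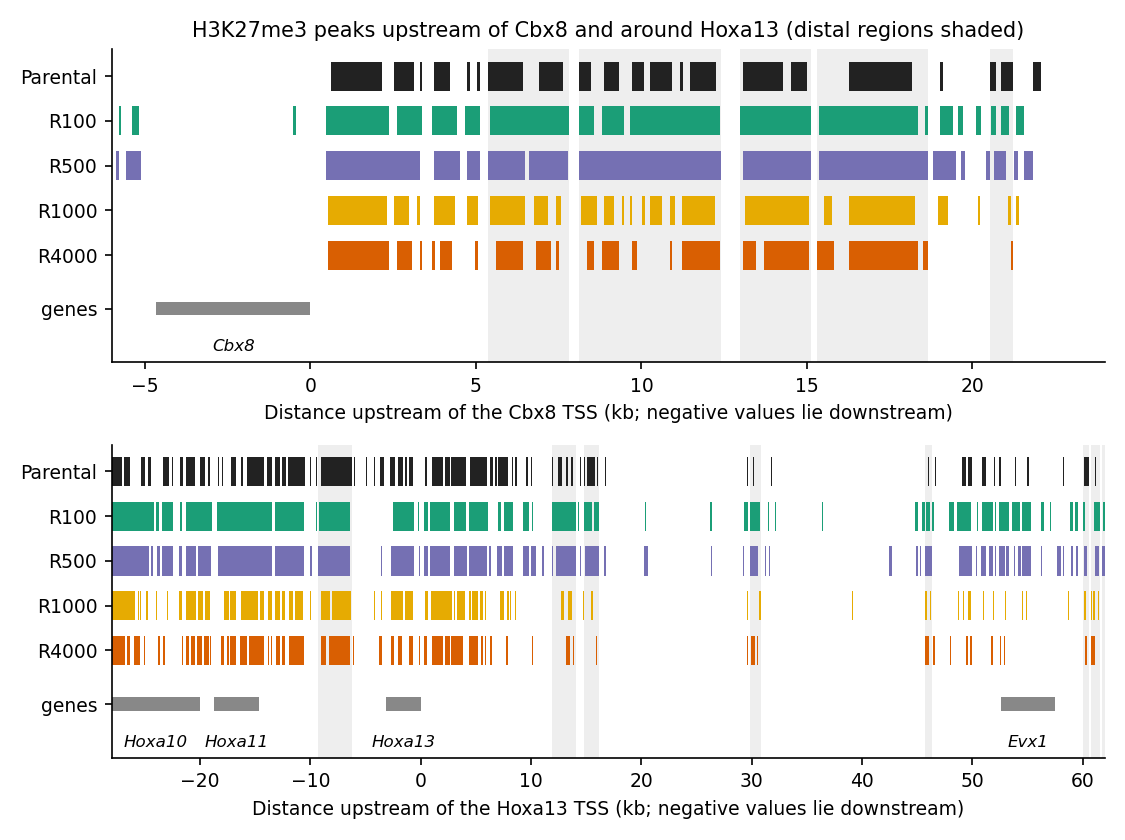
Positions of H3K27me3 peaks in the 5 lines upstream of Cbx8 (top) and around Hoxa13 and Evx1 (bottom), plotted by distance upstream of the named TSS in kb, with protein-coding genes in grey below and distal regions shaded. In the shaded region that begins 8.12 kb upstream of Cbx8, R500 has 1 peak and R100 has 3, against 6 in Parental, 8 in R1000 and 5 in R4000. This is not so everywhere: the region that begins 15.3 kb upstream has 1 peak in Parental and 2 in R100. The 5 shaded Cbx8 regions hold 12250 bp of peaks in R500 and 7950 bp in R4000.

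A second group of 8, chr6:51126301-51157850, held no protein-coding gene, and its nearest annotated gene was the microRNA gene Mir148a. It was covered over 4200 bp (Parental), 4100 bp (R100), 5350 bp (R500), 3650 bp (R1000) and 3050 bp (R4000). Here Parental and R100 differed by 100 bp, unlike the Cbx8 and Hoxa groups. In Gata4, a zinc finger factor gene of heart and endoderm, 5 regions together held 1550, 3950, 3100, 950 and 650 bp. The widest of them, chr14:63863251-63865600, holds the start of an annotated Gata4 transcript, and most of the others lie within 5 kb of a transcript start. Around Lbx1, 6 regions held 3250, 7300, 7300, 4300 and 3000 bp. At Wnt10a and Wnt6, 5 regions held 4300, 7600, 8600, 4500 and 4400 bp, so R100 and R500 held the most at these 3 loci.

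The nearest protein-coding TSS belonged to a developmental transcription factor gene for 83 of the 307 distal regions (27%, 95% Wilson interval 22.4 to 32.3%), at 49 genes. The same held for 18.5% (16.5 to 20.6%) of near-TSS regions in all 5 lines and for 8.35% (7.99 to 8.73%) of the 21509 distal regions missing in at least 1 line. Of all protein-coding genes, 1.83% belong to these families. Regions that share a gene are not independent, and counting only the widest region of each group gave 23.6%. The share was 18% at a distance limit of 10 kb and 14.7% when peaks within 1000 bp were joined. Both lie below the 18.5% of near-TSS regions, but that share was not recomputed under these settings.

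Homeobox genes outside the Hox clusters made up the largest family, with 48 distal regions at 25 genes, among them Lbx1, Zfhx3, Irx4, Irx5 and Lhx6. Hox genes were nearest for 9 regions (Hoxa11, Hoxa13, Hoxb13, Hoxc4, Hoxc5 and Hoxc11), basic helix-loop-helix genes for 8 (Heyl, Neurod2, Neurog1, Neurog2 and Tal1), Fox genes for 5 (Foxa1, Foxi3, Foxl2 and Foxp4) and T-box genes for 4 (Eomes, Tbx1, Tbx15 and Tbx2). All 5 regions of the Gata family were in Gata4, and most of them lay within 5 kb of an annotated transcript start. The other homeobox family took 15.6% of distal regions and 3.53% of distal regions missing in at least 1 line, Hox 2.93% and 0.642%, basic helix-loop-helix 2.61% and 0.981%, Fox 1.63% and 0.73%, T-box 1.3% and 0.335%, and Gata 1.63% and 0.4%. Near-TSS regions had 7.73% (other homeobox), 4.01% (Hox), 1.82% (basic helix-loop-helix), 1.75% (Fox), 0.511% (T-box) and 0.0729% (Gata). The Hox and Fox shares were thus not higher in distal than in near-TSS regions. No distal region was nearest to a Pax, Sox or nuclear receptor gene, families that took 0.479%, 0.158% and 0.391% of the other distal regions, too few for an absence to be read from 307 regions.

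Covered length at these genes was close to that at other genes. The median covered length at developmental transcription factor genes was 350 bp (Parental), 750 bp (R100), 850 bp (R500), 400 bp (R1000) and 200 bp (R4000), against 300, 600, 700, 300 and 200 bp at other genes. The Foxa1 region, near this endoderm factor gene, was covered over 1100, 1700, 1850, 1350 and 1200 bp, so R4000 stood 100 bp above Parental. The Tbx1 region was covered over 550, 950, 1250, 300 and 150 bp. The Hoxb13 region was covered over 500, 850, 950, 250 and 100 bp, and that at Hoxc4 chr15:102857351-102859200 over 1400, 1250, 1350, 600 and 950 bp, so the latter had Parental as its longest line.

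Of the listed B-cell regulators, Id1 was the only nearest gene of a distal region. Id1 encodes an inhibitor that binds E proteins and keeps them off DNA. The region chr2:152549401-152550150, 11.8 kb upstream of it, was covered over 200 bp (Parental), 650 bp (R100), 750 bp (R500), 100 bp (R1000) and 550 bp (R4000). R1000 was the shortest line here, unlike in most distal regions.

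A few other members are named after their values were seen, for their place in B-cell or chromatin biology. Tnfrsf13c encodes the BAFF receptor of B cells, and the region chr15:82041951-82043150 near it was covered over 450 bp (Parental), 1200 bp (R100), 1100 bp (R500), 1200 bp (R1000) and 300 bp (R4000). The region in Tet1, which encodes an enzyme that oxidises methylated cytosine, was covered over 600, 1250, 1600, 500 and 550 bp. Near Kdm6b, an H3K27 demethylase gene, the lengths were 200, 1250, 550, 100 and 250 bp. R1000 stood at the R100 level near Tnfrsf13c and under the parental level at the other pair.

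Many genes nearest to distal regions carried the mark at their own start, though in Parental, R1000 and R4000 close to as many did not. Of the 204 protein-coding genes nearest to a distal region, 52.5% had a peak within 5 kb of the TSS in the Parental list, 72.5% in that of R100 and 67.2% in that of R500, then 54.4% for R1000 and 49.5% for R4000. Over all protein-coding genes these shares were 11.0, 31.4, 24.5, 14.4 and 12.5%. The share in R4000 was close to that in Parental although the R4000 list is shorter.

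In position, 170 distal regions (55.4%) were intergenic, 74 (24.1%) held exonic bases and 63 (20.5%) lay in a gene without an exonic base. Exonic bases were found in 64.6% of near-TSS regions and in 7.86% of distal regions missing in at least 1 line. Those missing in a line are narrower, and a wider region can reach an exon more easily. Over 5 kb from a TSS, the share was 6.93% for regions in 1 line (median width 50 bp) and 16.3% for regions in 4 (500 bp). The part of width was not tested. For the distal regions in all 5 lines, the median distance to the nearest gene TSS was 12.1 kb, 129 (42.0%) lay within 10 kb, and 35 (11.4%) lay over 50 kb away. Relative to the nearest protein-coding gene, 127 lay upstream, 97 overlapped the gene and 83 lay beyond its 3' end. By individual transcripts, 68 (22.1%) were within 5 kb of a transcript start, and 19 contained one.

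Chromosome 6 held 47 distal regions (15.3%), against 8.68% of near-TSS regions, 12% of other distal regions and 9.63% of all union regions. The 47 include the group of 8 near Mir148a and the group of 8 from Hoxa11 to beyond Evx1. Regions of a group are not independent, so the share cannot be read as an excess on this chromosome. None lay on chromosome X or Y, and peaks on X were 0.543 to 0.711% of each list. At the 5 kb limit, the 3 regions just inside were 5008 bp from Pfn3, 5009 bp from B3gat2 and 5021 bp from Tnfrsf1a, and the 3 just outside were 4998 bp from AC102525.1, 4992 bp from Cox4i2 and 4982 bp from Gm15053. Their covered lengths overlapped: 50 to 400 bp in Parental inside and 100 to 900 bp outside.

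CpG content was higher in the distal regions than in other distal peaks. Their median CpG observed/expected ratio was 0.501 (quartiles 0.308 and 0.642), between 0.589 for near-TSS regions and 0.214 for distal regions missing in at least 1 line. A measured CpG ratio over 0.6 with GC over 50% and a width of at least 200 bp was met by 80 distal regions (26.1%), 44.6% of near-TSS regions and 1.51% of the other distal regions. Of those 21509 other regions, 18652 had a peak in 1 line only, with a median width of 50 bp. Many of them could not meet the width limit whatever their CpG content, so the 1.51% cannot be read as CpG content alone. Other distal regions are narrow, so the ratio was also taken in a fixed 300 bp window at the centre, where the medians were 0.489 and 0.222.

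Both the CpG ratio and the share near developmental factors were larger the more lines had a peak. Over 5 kb from a TSS, the share nearest to a developmental transcription factor gene was 7.11% for regions in 1 line, 14.5% in 2, 20% in 3, 20.5% in 4 and 27% in 5. The median CpG ratio of the fixed window was 0.214, 0.268, 0.328, 0.364 and 0.489 in that order. Median width was larger alongside, from 50 bp in 1 line to 900 bp in 5, and its part in these trends was not tested. The neighbouring classes of 3 and 4 lines had overlapping intervals (17.0 to 23.3% and 16.8 to 24.9%).

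**Figure D4:**
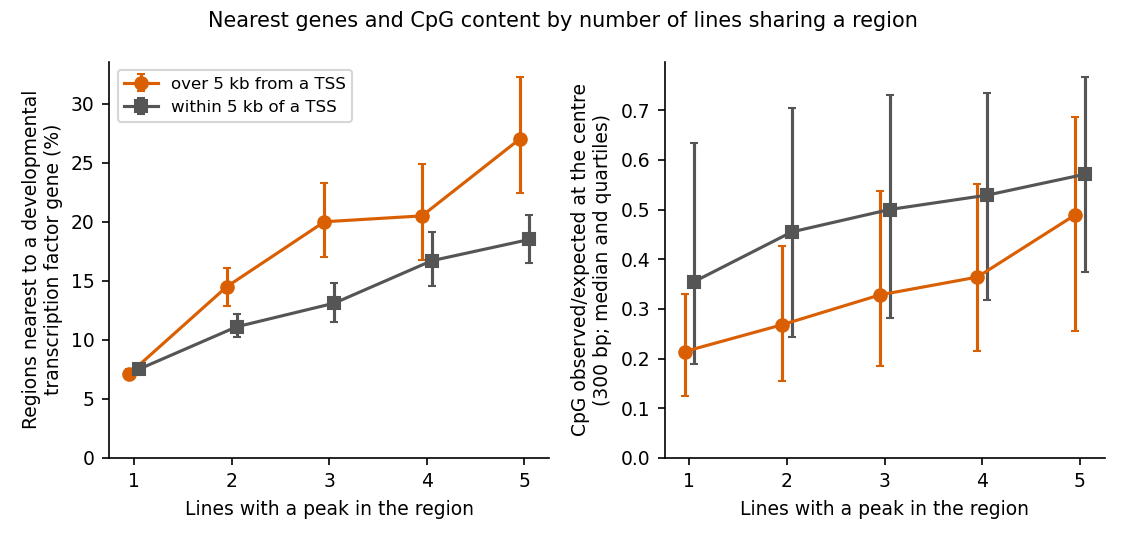
Left, percent of union regions whose nearest protein-coding TSS is a developmental transcription factor gene, with 95% Wilson intervals; right, median CpG observed/expected ratio in the central 300 bp with quartiles; both by the number of lines with a peak, for regions over and within 5 kb of a TSS. Over 5 kb from a TSS the share goes from 7.11% in 1 line to 27% in 5 lines, and within 5 kb from 7.51% to 18.5%.

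Inside the distal regions, bases covered in more lines held more CpGs when pooled: 3.46 per 100 bp where 1 line had a peak, 3.69 for 2, 3.89 for 3, 4.22 for 4 and 4.32 for 5. Within single regions this order was weak. Of 93 regions with at least 100 bases in both classes, the bases covered in all 5 lines held more CpGs than those covered in 1 or 2 lines in 47 and fewer in 43. Across regions, CpG ratio and covered length had a Spearman rho of -0.034 in Parental and 0.24 in R100, with Pearson r of -0.018 and 0.14 (n = 307), which is weak in every line.

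The E boxes CAGCTG and CAGGTG, which E proteins such as E2a can bind, were searched on both strands in the 300 bp at each centre. CAGCTG was found in 17.3% of distal regions and 17.9% of all union regions, and CAGGTG in 23.1% and 24.1%. Either motif was found in 34.5% (29.4 to 40.0%) and 37.5%. CGCGCG was found in 7.17% of distal regions, 9.77% of near-TSS regions and 1.22% of other distal regions, and GAGAGAGA in 2.93% of distal regions and 4.02% of all union regions. Overlapping matches of the same motif were counted once per window.

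A small set of distal regions was made of sequence that occurs more than once in the mouse genome. In 14 of 307 (4.56%, 2.74 to 7.51%), over 30% of the 32-base words were found at more than 1 place in mm9, against 0.875% of near-TSS regions and 1.11% of other distal regions. These 14 were 200 to 500 bp wide, and their median covered length was 200 bp (Parental), 325 bp (R100), 300 bp (R500), 250 bp (R1000) and 250 bp (R4000). Their R4000 peaks filled a median of 69.0% of the width, whereas in the 55 other distal regions of at most 500 bp they filled 33.3%. This was not particular to R4000: the medians were 55.6% and 42.9% in Parental, 100% and 80% in both R100 and R500, and 83.3% and 40% in R1000.

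Of the 5 distal regions farthest from any TSS, 3 were in this set. The farthest, chr3:5860501-5860850, 284 kb from the nearest TSS, that of Pxmp3, was covered over 300 bp in Parental and 350 bp in each resistant line. The region of the CpG-rich Samd9l core, chr6:3151301-3151650, was covered over 250, 350, 300, 300 and 250 bp. By blastn it matched, over 350 bp at 96.9% identity, chr17:39984157-39984506 in the AY036118 locus, which is known to hold ribosomal RNA sequence. The region in Jarid2, a gene for a PRC2 partner, chr13:44964851-44965350, shared 121 bp at 98.3% identity with the one in Filip1l and 93 bp at 90.3% with the AY036118 locus. A further 3 regions in Sp110 also belonged to the set. Without the 14 regions, the ratios of medians to Parental were 2.33, 2.5, 1.0 and 0.667, and the share at developmental factors was 28.3%.

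**Figure D5:**
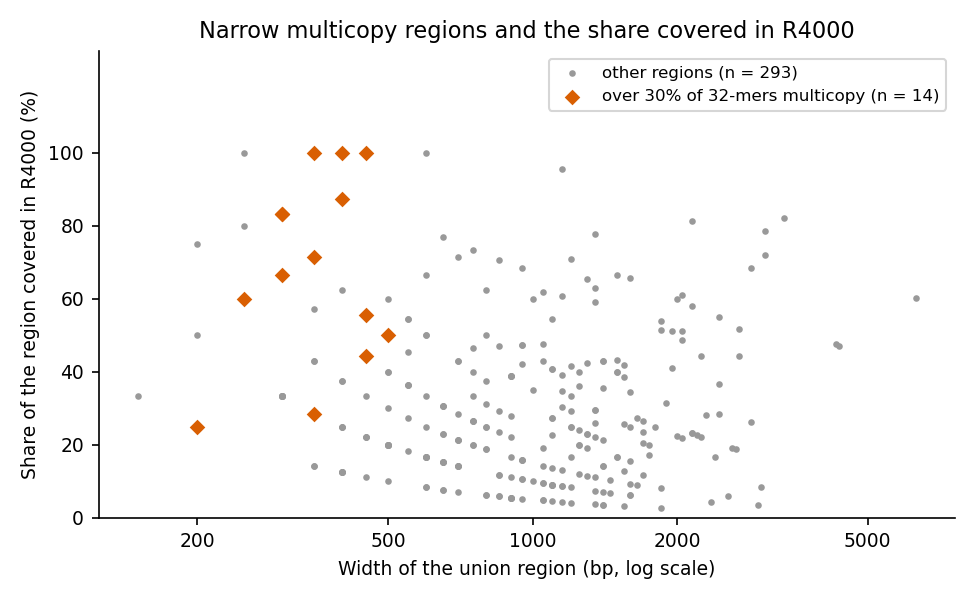
Share of each union region covered by R4000 peaks (%) against region width (bp, log scale); diamonds are the 14 distal regions with over 30% of 32-base words found more than once in the genome, dots the other 293. The diamonds lie at 200 to 500 bp with a median of 69.0%, and some lie on top of each other.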

How the data were processed

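The study immunoprecipitated H3K27me3 chromatin from 5 lines and compared the libraries with input libraries. Per the labels, reads were aligned with Bowtie to mm9, and the authors called peaks against input in tiled windows under a Poisson model. The threshold, and whether libraries were pooled, are not given in the sources used here. The deposited files are 1 list per line of peak positions (chromosome, start, end), 1-based on a 50 bp grid, with no read count, height, signal or score. Depth is therefore unknown, and Wilson 95% intervals of shares cover counting of regions only. The lists of R100 and R500 hold each row more than once, and duplicates were dropped. Reduced representation bisulfite samples were not analysed here.

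Peaks overlapping by at least 1 base were merged into union regions. Covered length is the number of bases of a region under peaks of a line. Distance runs from the region's nearest edge to the gene's 5' end in GENCODE vM1 (37310 genes, 22380 protein-coding), on the mm9 genome. CpG observed/expected is the CpG count times length divided by the product of the C and G counts. Developmental families were drawn by symbol, and Lbx1, Dmbx1 and Tbr1 were added to the homeobox and T-box lists beyond the planned text. The genome file carries no repeat mask, so copies of 32-base words, on either strand, replaced the planned repeat share. Python 3.11.15, numpy 2.4.6, pandas 2.3.3, scipy 1.17.1, numba 0.67.0, matplotlib 3.10.9 and blastn 2.17.0 were used, and the interval and word-count functions were tested on simulated data.

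Printed sequences come from cores outside UTRs and not on chromosome 18. Named regions were those with the 12 longest cores, the 5 largest and 5 smallest ratios of R4000 to Parental, the 5 farthest from a TSS, the 3 on either side of the limit, and those at Hox, Pax, Sox, Fox, T-box, Gata and B-cell factor genes. The regions, lists and descriptions were chosen with earlier results of these data known. With 1 list per line and no replicate lists analysed here, no test was made. Alternatives changed the distance, the annotation, the merging, the peak and coverage minimum and the number of peaks. Leaving out multicopy regions and keeping 1 region per group were added after seeing the data.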

Additional observations from a re-analysis of the deposited data

Results flagged for a closer look

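R100 and R500 lay on the other side of the parental line from R4000 in the covered length of distal regions. The ratio of the median covered length to that of Parental was 2.17 in R100 and 2.33 in R500, above 1, and 0.667 in R4000, below 1, while R1000 was at 1.0. R100 and R500 are also the only lists that held duplicate rows. Each value comes from 1 list, so the difference between the lines was not tested.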

How the results depend on the processing

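Of 97 recomputed main values under 13 alternatives, 83 stayed within the interval of the reported value (counts within 1.5 times). These include the autosome-only values, which could not move because no distal region lay on X or Y. No ratio of R100, R500 or R4000 turned its direction against Parental. A turn could not be seen in R1000, whose reported ratio was 1.0 and which lay between 1.0 and 1.22 in the alternatives. The number of distal regions was 517 at 2 kb, 178 at 10 kb, 157 with at least 150 bp covered in each line and 203 with 1 region per group. The share inside a gene was 53.0% at 2 kb, 29.3% with the TSS of every transcript and 51.7% with protein-coding genes only. The share at developmental factors was 18% at 10 kb and 14.7% when peaks within 1000 bp were joined. That joining gave ratios of medians to Parental of 3.17 in R100, 3.33 in R500 and 0.5 in R4000, and a median CpG ratio of 0.399, which was 0.55 with 1 region per group. The cause of these shifts was not tested. No paired analysis was possible because the labels give no replicate numbers and each line has 1 list. Leaving out a replicate was not possible for the same reason. The lists hold no depth, so how far peak number and width follow sequencing depth cannot be told from them.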
